A study of Mus musculus with 6 samples.

Results

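Small nucleolar RNAs and the genes that host them were followed in RNA sequencing of mouse biliary epithelial cells, which form the bile ducts of the liver. Members were the rows whose symbol begins with Snord (box C/D snoRNAs), Snora (box H/ACA snoRNAs), Scarna (small Cajal body RNAs, scaRNAs), Snhg (host genes) or Rn7s, together with Gas5, Rmrp, Rpph1 and Terc. They came to 93 of 25302 rows. Of these, 74 were small RNAs (46 box C/D, 17 box H/ACA, 7 scaRNAs and 4 other stable RNAs), 18 were host gene rows and 1, Snhg7os, was named as an antisense RNA. Rmrp and Terc had no row and were not analysed here.

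The study had 3 Control samples, of genotype Sox9fl/fl, and 3 Sox9cKO samples, of genotype Sox9fl/fl:AlbCre+/-. Both groups thus carried floxed alleles of Sox9, a transcription factor of bile duct cells, and the Sox9cKO samples also carried Cre recombinase under the albumin promoter, which is active in hepatocytes and in the liver progenitors that give rise to both hepatocytes and bile duct cells. The labels give no age, and nothing in them says that the samples came from separate animals, so the p-values measure only the spread between these samples. Total RNA was sequenced after depletion of ribosomal RNA, and no step that selects poly(A) tails is named. In bulk samples, fewer cells of a type and less RNA per cell cannot be told apart.

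Box C/D snoRNAs sit with fibrillarin and guide ribose methylation of ribosomal RNA, whereas box H/ACA snoRNAs sit with dyskerin and guide the change of uridine to pseudouridine. scaRNAs do the same work on the RNAs of the spliceosome in Cajal bodies. Most mammalian snoRNAs are cut out of introns of a host gene, often one for a ribosomal or nucleolar protein, while Snhg genes and Gas5 are hosts whose spliced transcripts are mostly noncoding. Rpph1 is the RNA of RNase P, which trims the leader of transfer RNA precursors, and Rn7s1, Rn7s2 and Rn7s6 are copies of the RNA of the signal recognition particle, which brings nascent secretory proteins to the endoplasmic reticulum.

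The short conserved boxes that define each class could be read in the annotated sequences (GENCODE mouse release M21). The following are shown because the values below turn on them. Snord17 and Snord15a had the highest levels of the box C/D class, Snord43 and Snord83b share the host Rpl3, and Snord123 and Snord87 lie inside the host genes Snhg18 and Snhg6. Capitals mark the C box (TGATGA) and the D box (CTGA). The boxes lie within 15 nt of the 5′ and 3′ ends, except for the C box of Snord43, which lies further from the 5′ end. The annotation types the Snord43 row as a miRNA and not as a snoRNA.
Snord17: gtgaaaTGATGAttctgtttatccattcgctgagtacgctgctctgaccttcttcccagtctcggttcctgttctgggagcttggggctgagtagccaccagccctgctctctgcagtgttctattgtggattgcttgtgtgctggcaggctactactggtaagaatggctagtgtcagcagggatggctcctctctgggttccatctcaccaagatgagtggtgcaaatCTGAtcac
Snord15a: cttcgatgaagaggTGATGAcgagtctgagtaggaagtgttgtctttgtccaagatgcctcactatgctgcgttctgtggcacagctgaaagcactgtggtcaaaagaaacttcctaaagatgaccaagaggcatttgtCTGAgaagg
Snord43: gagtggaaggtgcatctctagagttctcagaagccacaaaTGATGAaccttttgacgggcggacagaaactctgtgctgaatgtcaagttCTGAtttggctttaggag
Snord83b: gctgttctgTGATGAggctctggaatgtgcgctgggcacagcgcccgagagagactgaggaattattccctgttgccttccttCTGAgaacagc
Snord123: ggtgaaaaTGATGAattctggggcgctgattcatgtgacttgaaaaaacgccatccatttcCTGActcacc
Snord87: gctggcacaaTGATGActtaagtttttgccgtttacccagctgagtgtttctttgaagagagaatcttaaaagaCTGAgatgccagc

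The box H/ACA members that follow are the near-identical pair Snora73a and Snora73b, both inside Snhg3, and the next most abundant members, Snora21 and Snora23. Capitals mark the ACA box near the 3′ end.
Snora73a: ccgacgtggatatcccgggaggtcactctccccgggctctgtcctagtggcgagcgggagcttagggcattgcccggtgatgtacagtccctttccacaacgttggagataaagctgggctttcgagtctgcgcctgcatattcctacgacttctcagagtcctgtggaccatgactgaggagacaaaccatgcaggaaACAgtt
Snora73b: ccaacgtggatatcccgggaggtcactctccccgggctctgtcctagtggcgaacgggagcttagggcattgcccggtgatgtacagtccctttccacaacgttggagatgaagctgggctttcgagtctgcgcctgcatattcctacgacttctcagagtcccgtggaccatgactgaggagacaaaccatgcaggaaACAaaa
Snora21: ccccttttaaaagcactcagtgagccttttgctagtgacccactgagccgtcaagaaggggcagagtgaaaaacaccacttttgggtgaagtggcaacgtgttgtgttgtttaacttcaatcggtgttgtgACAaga
Snora23: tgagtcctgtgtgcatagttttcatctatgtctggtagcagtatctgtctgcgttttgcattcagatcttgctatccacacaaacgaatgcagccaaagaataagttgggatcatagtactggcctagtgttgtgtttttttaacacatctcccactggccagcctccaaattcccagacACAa

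Scarna2 (positions 115 to 414 of 414, counted from the 5′ end) and Rpph1 (positions 1 to 300 of 319) are given in lower case, as the most abundant scaRNA and as the small RNA with the lowest adjusted p-value.
Scarna2: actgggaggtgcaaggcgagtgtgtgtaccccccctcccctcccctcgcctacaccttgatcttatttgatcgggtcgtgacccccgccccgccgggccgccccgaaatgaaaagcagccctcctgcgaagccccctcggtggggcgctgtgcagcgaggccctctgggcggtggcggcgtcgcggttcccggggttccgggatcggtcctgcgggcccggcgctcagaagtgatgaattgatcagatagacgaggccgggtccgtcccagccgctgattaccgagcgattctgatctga
Rpph1: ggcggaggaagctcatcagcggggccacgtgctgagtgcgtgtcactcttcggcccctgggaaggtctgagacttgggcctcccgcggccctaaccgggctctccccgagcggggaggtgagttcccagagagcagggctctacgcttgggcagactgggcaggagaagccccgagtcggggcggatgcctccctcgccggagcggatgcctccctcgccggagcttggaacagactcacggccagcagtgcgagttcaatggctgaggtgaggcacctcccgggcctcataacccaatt

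A search of the strand of the RNA found TGATGA within 15 nt of the 5′ end together with CTGA within 15 nt of the 3′ end in 28 of 46 box C/D members (60.9%). Among 4033 other annotated RNAs of 60 to 420 nt, 1 held both (0.0248%). CTGA alone stood within 15 nt of the 3′ end in 44 of the 46 members. All 17 box H/ACA members had ACA within 4 nt of the 3′ end, against 9.72% of the other short RNAs. A symbol of either class therefore went with the box of that class, D in the first and ACA in the second, in all but 2 rows. The share of other short RNAs with CTGA alone was not counted. Some members also held the motif of the other class: Snora47 and Snora17 had CTGA within 15 nt of the 3′ end. Snord13, Snord83b, Snord11 and Snord73b had ACA within 4 nt of it.

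The libraries held 11883496 to 16191990 reads. Small RNA members took 0.129% to 0.151% of them. Sox9 itself, as the check of the labels, read 6211, 6043 and 6293 normalized reads in the Control samples and 3363, 3165 and 3340 in the Sox9cKO samples (log2 fold change -0.91, limma with Benjamini-Hochberg adjustment, adjusted p = 0.00501, lower in 3 of 3). All 10 biliary markers were tested, with 1 called higher (Krt7) and 1 lower (Sox9). The lowest mean level among the 10 was 33.2 normalized reads. Of 10 hepatocyte markers 3 rose, Fgb, Serpina1c and Apob, and the median log2 fold change of the list was 0.41. Alb read 27683, 17384 and 18944 in Control and 32147, 21399 and 35363 in Sox9cKO samples (0.47, not called), and 3 were below 0, among them Asgr1 at -1.31 without overlap (limma adjusted p = 0.164) and Ttr at -0.44. The summed level of the list was 25015 to 38898 in Control and 49013 to 79977 in Sox9cKO samples. Most of this sum was Alb and Apob. Mean levels in Control and Sox9cKO samples were 21337 and 29636 for Alb and 2712 and 22111 for Apob. The 8 endothelial markers summed to 1349 to 31716 in Control and 5077 to 32305 in Sox9cKO samples, highest in both samples numbered 2 and lowest in both numbered 3, with 0 of 8 called. Of 7 tested leukocyte and erythroid markers Csf1r rose (log2 fold change 0.92), while the other 6 were below 0 and not called, with a median of -0.48 for the list. Among these, Ptprc was at -1.95 and Cd68 at -0.39, both without overlap. Of 7 mesenchymal markers 0 were called. The endothelial and mesenchymal lists also had 0 at an unadjusted p under 0.05 by limma, edgeR and DESeq2. Xist, the RNA that coats the inactive X chromosome of female cells, read 31917, 6.5 and 32279 in Control and 27852, 6.62 and 10.2 in Sox9cKO samples. It was thus near 0 in 1 Control and 2 Sox9cKO samples and differed within the pair of samples numbered 3, so the groups held unlike mixes of libraries with and without it. The part of these other cells and of this difference in the results on small RNAs was not tested.

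Levels were concentrated in a few RNAs. Snord17 alone gave 30.7% of the summed level of the 74 small RNAs, the 5 most abundant gave 66.9%, and the 10 most abundant gave 83.7%. The median of the mean level was 18.4 normalized reads for the 38 members shorter than 100 nt, 66.9 for the 24 of 100 nt to under 150 nt and 559 for the 12 of 150 nt or more. Divided by length, the medians were 237, 584 and 1799 normalized reads per kb, so the order held per length. Across the 74 members, Spearman's rho of length and mean level was 0.519, and across the 46 box C/D members it was 0.333. These points share their libraries, and the labels name no size selection.

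**Figure D1:**
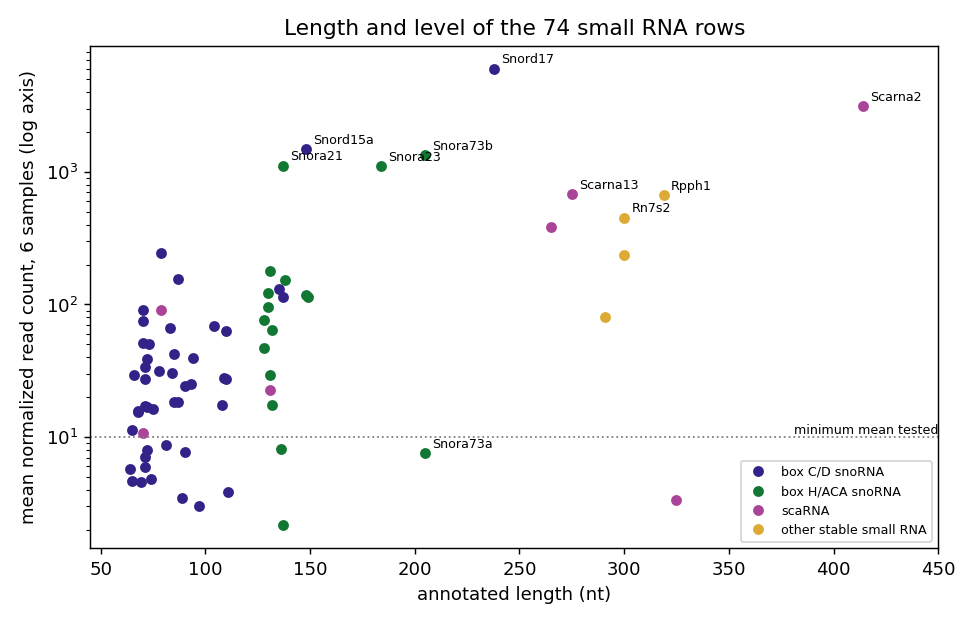
Annotated length (x axis, nt) against the mean normalized read count over the 6 samples (y axis, log scale) for the 74 small RNA rows, coloured by class, with the minimum mean of 10 for testing as a dotted line. Most box C/D members lie below 100 nt and low on the y axis, and Snora73a and Snora73b, both of 205 nt, lie far apart.

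Members averaging 10 normalized reads or more were tested on log2(normalized count + 1). This left 34 of 46 box C/D, 14 of 17 box H/ACA, 6 of 7 scaRNA, 4 of 4 other stable RNAs, 15 of 18 host rows and Snhg7os, 74 in all, while 19 rows, with means of 2.16 to 8.78, fell below it. At an adjusted p of 0.05, limma called 0 of the 74 members, beside 2.97% of all 17153 features tested. At an unadjusted p under 0.05, limma found 6 members, beside 17.8% of all features, while edgeR found 7 (17.5% of all) and DESeq2 found 5 (16.7% of all). edgeR called 0 at an adjusted p of 0.05, beside 2.86% of all features, whereas DESeq2 called 2 (Rpph1 and Snhg18), beside 7.08% of all features. Same-numbered samples deviated together, and a limma fit that took the number as a block called the same 2 members, beside 8.05% of all features. The 95% interval of the log2 fold change lay within 1 of no difference for 43 of the 74, and the intervals of the other 31 reached past a log2 fold change of 1 in at least 1 direction.

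**Figure D2:**
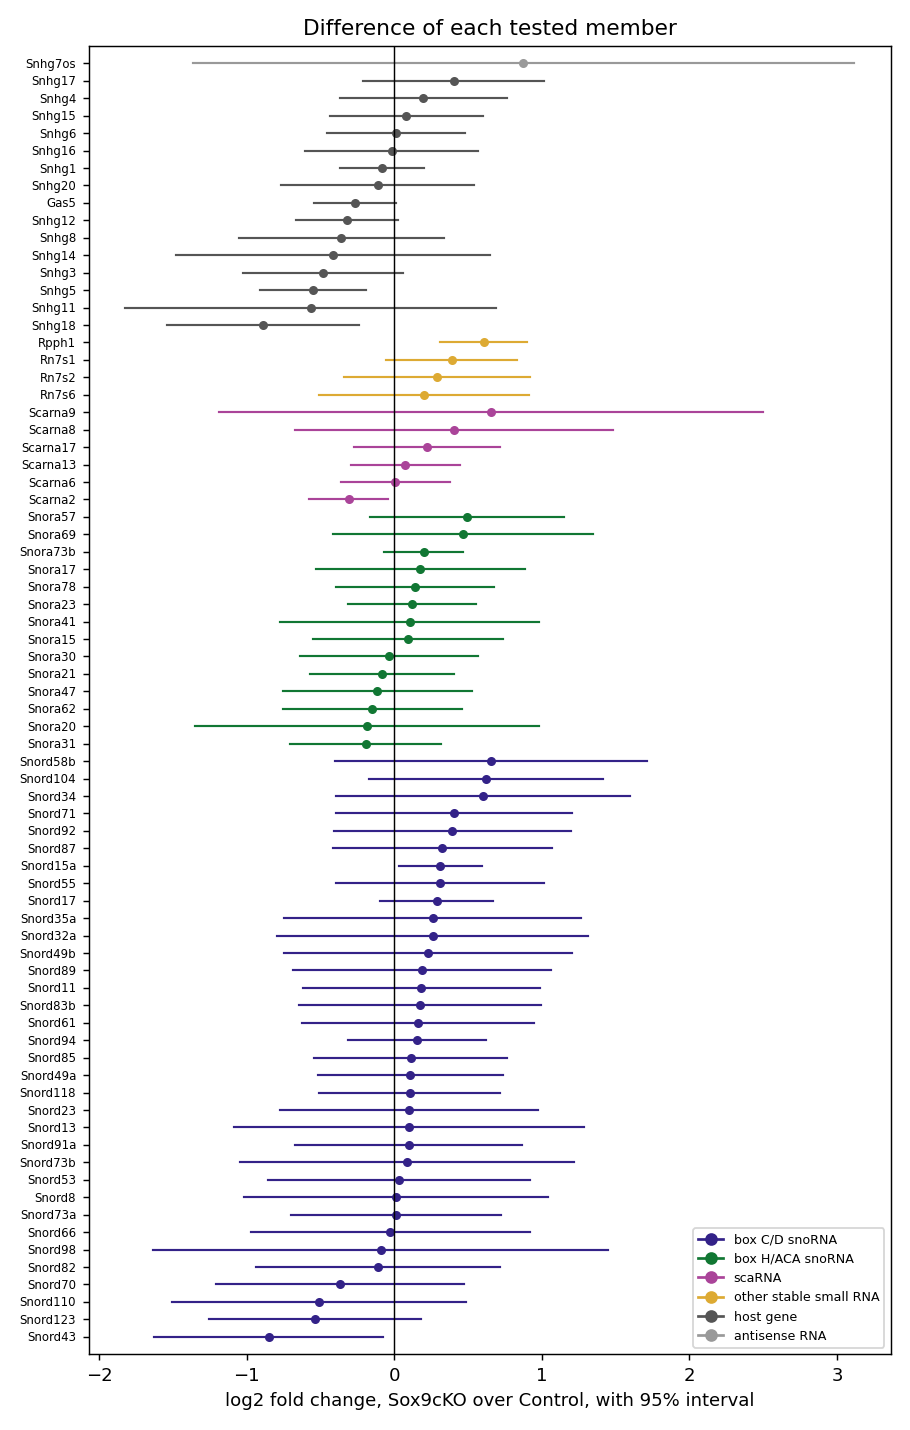
Log2 fold change of Sox9cKO over Control (x axis) with its 95% interval from limma, for each of the 74 tested members (y axis), coloured by class and ordered within class. Box C/D points lie mostly right of 0 and host gene points mostly left of it, and most intervals cross 0.

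Among the box C/D snoRNAs, 27 of 34 tested members had a positive log2 fold change and 7 a negative one, with a median of 0.13, against 54.2% positive and a median of 0.036 over all features tested. limma, edgeR and DESeq2 called 0. An unadjusted p was under 0.05 for 2 with limma, 1 with edgeR and 0 with DESeq2, beside 17.8%, 17.5% and 16.7% of all features. The split depended on single libraries. Without Sox9cKO replicate 2 it was 15 positive and 19 negative, with a median of -0.027. Without Control replicate 3 it was 20 positive and 14 negative, with a median of 0.057. Snord17, a guide for the large-subunit ribosomal RNA that lies in an intron of Snx5, read 4962, 6770 and 4580 in the Control samples and 6486, 7009 and 6149 in the Sox9cKO samples. Control replicate 2 fell inside the Sox9cKO range, and the other 2 Control samples lay below it (log2 fold change 0.29, SE 0.16, limma adjusted p = 0.418). Snord15a, another guide for the large-subunit RNA from an intron of Rps3, read 1307, 1271 and 1370 in Control and 1749, 1435 and 1735 in Sox9cKO samples. Its groups did not overlap, yet the difference missed the threshold (log2 fold change 0.31, 95% interval 0.030 to 0.59, limma adjusted p = 0.234). Its host Rps3, a ribosomal protein gene, had a log2 fold change of -0.15 (SE 0.19).

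Snord43, a row that the annotation types as a miRNA, was the box C/D member with the lowest log2 fold change. It read 21.9, 25.1 and 20.7 in the Control and 8.95, 14.2 and 13.6 in the Sox9cKO samples, with no overlap (log2 fold change -0.85, SE 0.33, limma adjusted p = 0.238). Snord83b, in another intron of the same host, read 33.6, 51.0 and 26.5 in Control and 38.8, 55.8 and 30.6 in Sox9cKO samples, with overlapping groups. Rpl3 itself, a protein of the large ribosomal subunit, was at 2372 ± 812 (SD, n = 3) and 2432 ± 765 (SD, n = 3). Both RNAs lie in introns of Rpl3 and stood at log2 fold changes of -0.85 and 0.18. The difference between them was not tested, and Snord43 had few reads. Of the members in introns of Rpl13a, Snord34 was at 0.60 and both Snord32a and Snord35a at 0.26, and each was highest in Sox9cKO replicate 2. Rpl13a itself was at -0.24, lower in Sox9cKO samples without overlap but not called (limma adjusted p = 0.482). Snord118, which is needed for maturation of the large-subunit RNA and for which the annotation gives no host, read 124, 142 and 109 in Control and 179, 141 and 95.1 in Sox9cKO samples, with overlapping groups. Snord13, a guide for acetylation of the small-subunit RNA, read 54.6, 95.6 and 41.5 in Control and 38.8, 132 and 52.1 in Sox9cKO samples, also overlapping.

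The short box C/D RNAs stood high in 1 library, Sox9cKO replicate 2. Of the 25 tested members under 100 nt, 24 were above their own mean in Sox9cKO replicate 2 and 16 had their highest value there. Their median log2 deviation was 0.54 in that library, against -0.24 in Sox9cKO replicate 1, -0.11 in Sox9cKO replicate 3 and -0.17 to 0.11 in the Control samples. Over all features tested the library medians lay between -0.022 and 0.039. Summed over the 36 rows under 100 nt, the level was 995, 1337 and 1075 in the Control samples and 1195, 1859 and 1035 in the Sox9cKO samples, and the groups overlapped (exact permutation test, two-sided, p = 0.6, n = 3 a group, where the smallest p this design allows is 0.1). The 9 tested box C/D members of 100 nt or more had a median deviation of 0.12 in Sox9cKO replicate 2. The summed endothelial markers were 32305 in that library and 31716 in Control replicate 2, where the short box C/D median was 0.11. The part of endothelial RNA in this pattern was not tested. Snord87, in an intron of Snhg6, showed the pattern: it read 115, 159 and 131 in Control and 155, 267 and 114 in Sox9cKO samples. Snord104 read 50.4, 79.8 and 46.1 in Control and 79.6, 132 and 65.7 in Sox9cKO samples.

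**Figure D3:**
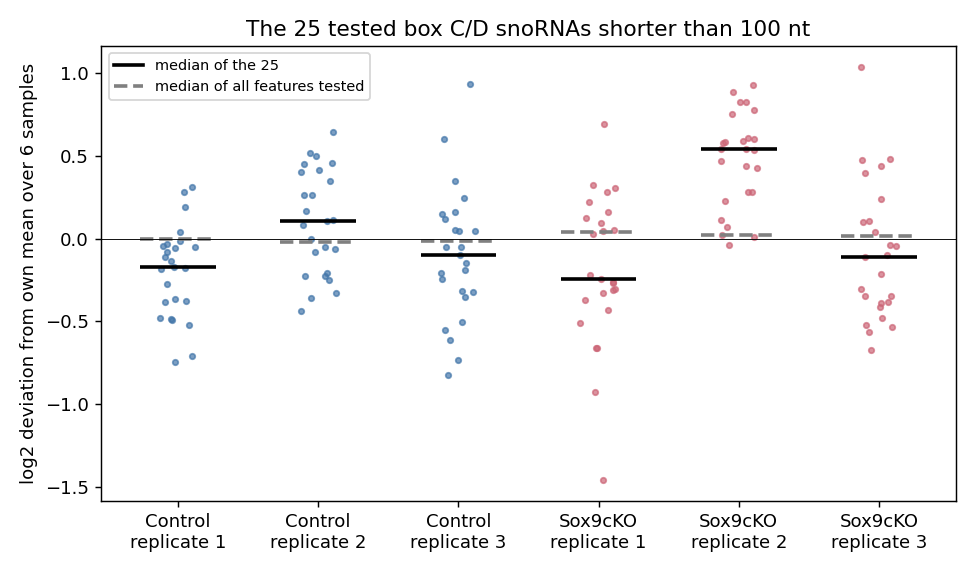
Log2 deviation of each of the 25 tested box C/D snoRNAs under 100 nt from its own mean (y axis) in each of the 6 samples (x axis), with the median of the 25 as a solid line and the median of all features tested as a dashed line. The median in Sox9cKO replicate 2 is 0.54, and the medians in the other samples lie between -0.24 and 0.11.

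Of the box H/ACA snoRNAs, 8 of 14 tested members had a positive and 6 a negative log2 fold change, with a median of 0.097 and a range of -0.19 to 0.49, and limma called 0 (0 also at an unadjusted p under 0.05 by limma, edgeR and DESeq2). The class was low in 1 Control library: its median log2 deviation in Control replicate 3 was -0.45, and 1 of the 14 members stood above its own mean there. The 9 tested box C/D members of 100 nt or more were low there too, with a median deviation of -0.37. Without that library the box H/ACA split was 5 positive and 9 negative, with a median of -0.080. Snora57, which had the highest log2 fold change of the class, had its lowest value in that library too, with 99.2, 137 and 65.7 in the Control and 124, 135 and 149 in the Sox9cKO samples (log2 fold change 0.49, SE 0.28, limma adjusted p = 0.422). Snora21, from an intron of Rpl23, read 1215, 1245 and 950.5 in Control and 1340, 1122 and 804 in Sox9cKO samples, and its log2 fold change of -0.084 was smaller than its SE of 0.21. Snora23, from an intron of Ipo7, read 895, 1128 and 1138 in Control and 951, 1071 and 1441 in Sox9cKO samples, also with overlapping groups.

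Snora73a and Snora73b are unlike most of the class, since they act in cleavage of the ribosomal RNA precursor and not in modification. Their annotated sequences, printed above, are of 205 nt each and differ at 7 positions. Counted from 1 at the 5′ end, the substitutions from Snora73b to Snora73a were A3G, A54G, G111A, C164T, A203G, A204T and A205T. Their levels were far apart: Snora73b averaged 1342 normalized reads and Snora73a 7.55. With 96.6% identity, reads could be split between them in counting, so the level of each alone is uncertain. Snora73b read 1203, 1271 and 1267 in Control and 1327, 1389 and 1595 in Sox9cKO samples. Those groups did not overlap, by a small margin (log2 fold change 0.20, 95% interval -0.067 to 0.47, limma adjusted p = 0.42).

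Among the scaRNAs, Scarna2, a guide for a spliceosomal RNA that the annotation places in no host gene, carried most of the level. It read 3533, 3241 and 3614 in the Control samples and 2755, 3069 and 2568 in the Sox9cKO samples. The groups did not overlap, but the difference was not called (log2 fold change -0.31, SE 0.11, limma adjusted p = 0.211, and 0.142 with the replicate block). The other 5 tested scaRNAs had log2 fold changes between 0.0079 (Scarna6) and 0.66 (Scarna9, at a mean of 10.7 normalized reads). Summed over the 7 rows, the scaRNA level was 4617 ± 250 (SD, n = 3) in Control and 4020 ± 136 (SD, n = 3) in Sox9cKO samples, a ratio of 0.871 (exact permutation test, two-sided, p = 0.1, the smallest possible). Without Scarna2 the ratio was 1.06. Scarna13, whose annotated place is an intron of Snhg10, read 610.3, 626 and 747 in Control and 631, 634 and 834 in Sox9cKO samples, with a log2 fold change of 0.075 that turned negative under 2 of 3 other scalings.

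Rpph1, the RNase P RNA, came closest to a call. It read 496, 536 and 553 normalized reads in the Control samples and 862, 717 and 842 in the Sox9cKO samples. All Sox9cKO samples lay above all Control samples, and it was higher in 3 of 3 same-numbered pairs (log2 fold change 0.61, SE 0.13, 95% interval 0.31 to 0.90, limma adjusted p = 0.054). With the replicate block the limma adjusted p was 0.0312, with DESeq2 it was 0.00724 and with edgeR 0.074, so the call depended on the model. The annotated RNAs of the related genes Rprl1, Rprl2 and Rprl3 are 74.8% to 78.4% identical to Rpph1, so some of its reads could be shared with them. Outside the symbol rule, Rprl3 read 1696, 1832 and 2494 in Control and 1557, 1306 and 2973 in Sox9cKO samples, with overlapping groups and a log2 fold change of -0.12.

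The signal recognition particle RNAs had positive log2 fold changes in all 3 rows, with 0 called and 0 at an unadjusted p under 0.05 by limma, edgeR or DESeq2. Rn7s1 read 166, 237 and 212 in Control and 251, 241 and 311 in Sox9cKO samples, narrowly without overlap (log2 fold change 0.39, limma adjusted p = 0.347). Rn7s2 read 308, 379 and 531 in Control and 443, 385 and 662 in Sox9cKO samples, and Rn7s6 read 58.0, 70.5 and 93.3 in Control and 78.6, 62.4 and 119 in Sox9cKO samples. Rn7s1 and Rn7s2 are 100% identical over 300 nt and Rn7s6 is 85.2% identical to them, so reads could not be assigned among Rn7s1 and Rn7s2 with certainty. Each of the 3 was highest in Sox9cKO replicate 3 and lowest in Control replicate 1. Summed with Rpph1, the 4 rows gave 1213 ± 181 (SD, n = 3) in Control and 1658 ± 266 (SD, n = 3) in Sox9cKO samples (ratio 1.37, exact permutation test, two-sided, p = 0.1), and without Rpph1 the ratio was 1.24 (p = 0.4). The p was 0.2 under TMM scaling.

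**Figure D4:**
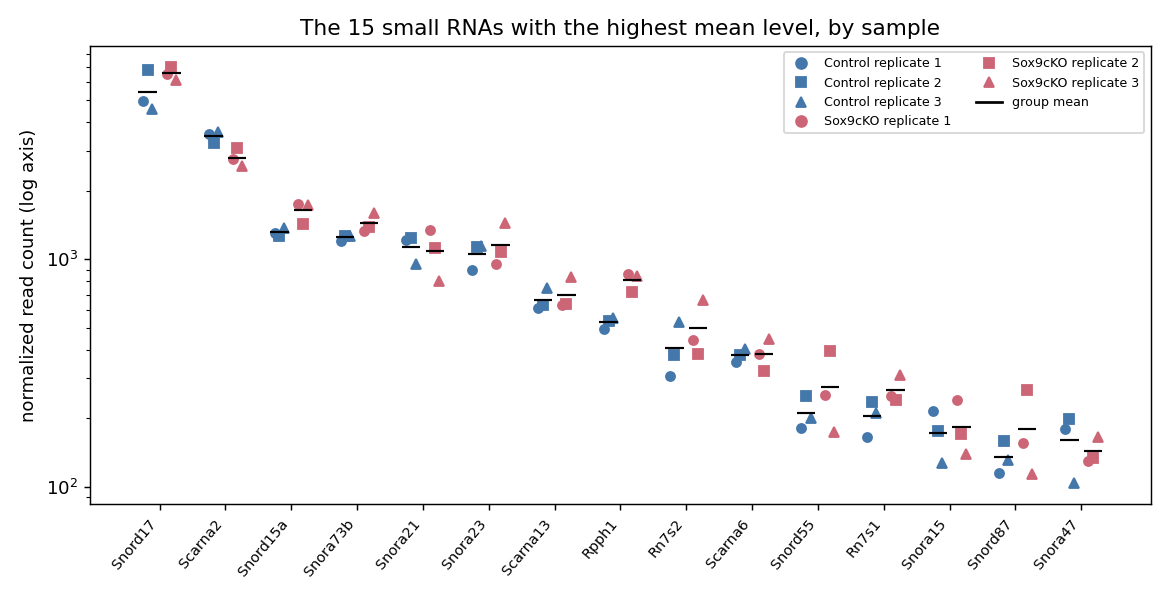
Normalized read counts (y axis, log scale) of the 15 small RNAs with the highest mean level (x axis) in each Control sample (blue) and Sox9cKO sample (red), with marker shape for the replicate number and a bar for the group mean. The 2 groups separate for Scarna2 (lower in Sox9cKO samples) and for Snord15a, Snora73b, Rpph1 and Rn7s1 (higher), and overlap for the others.

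Taking the 58 tested small RNAs as 1 set, 44 had a positive and 14 a negative log2 fold change, with a median of 0.13. Scaled by size factors from the small RNAs alone the split was 39 and 19, and without Sox9cKO replicate 2 it was 31 and 26 of 57 tested. Without Control replicate 3 it was 33 and 25. In 6 of the 58 (10.3%) the groups did not overlap, 4 higher and 2 lower, whereas over all features tested the share was 24.2%, with 13.4% higher and 10.8% lower. The box C/D sum was 8327 ± 1382 (SD, n = 3) normalized reads in Control and 10022 ± 779 (SD, n = 3) in Sox9cKO samples (exact permutation test, two-sided, p = 0.2), and the box H/ACA sum was 4460.5 ± 408 (SD, n = 3) and 4719 ± 111 (SD, n = 3) (p = 0.4).

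The host genes leaned the other way. Of 15 tested rows 11 had a negative and 4 a positive log2 fold change, with a median of -0.26. Only Snhg3, Snhg6 and Snhg18 among them contain a tested small RNA member. The other rows give no comparison with a small RNA member of their own. In 5 of the 15 (33.3%) the groups did not overlap, all lower in Sox9cKO samples, beside 10.8% of all features tested that were lower without overlap. limma and edgeR called 0 of the 15. Unadjusted p-values were under 0.05 for 2 with limma, 4 with edgeR and 3 with DESeq2, beside 17.8%, 17.5% and 16.7% of all features. The median stayed negative under every alternative run, between -0.35 and -0.089. Without Sox9cKO replicate 1 the median was -0.089. Summed over the 18 rows, the host level was 3374 ± 218 (SD, n = 3) in Control and 3054 ± 165 (SD, n = 3) in Sox9cKO samples (ratio 0.905, exact permutation test, two-sided, p = 0.2).

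Snhg18, a noncoding host in which the annotation places Snord123, had the lowest log2 fold change of all tested members. It read 177, 91.0 and 136 in the Control and 78.6, 60.5 and 71.3 in the Sox9cKO samples, a separation with a wide Control spread (log2 fold change -0.89, SE 0.28, limma adjusted p = 0.155). With the replicate block its limma adjusted p was 0.0447, and with DESeq2 it was 0.0419. Snord123 inside it read 31.1, 39.0 and 49.5 in Control and 25.9, 34.0 and 21.5 in Sox9cKO samples, with 1 Sox9cKO sample inside the Control range (log2 fold change -0.54, SE 0.31). Snhg5 read 211, 199.5 and 234 in Control and 147, 157 and 135 in Sox9cKO samples, without overlap (log2 fold change -0.55, SE 0.15, limma adjusted p = 0.12). Its adjusted p with the block was 0.0869, so Snhg5 was not called in either fit.

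Gas5, named for its accumulation in growth-arrested cells, was the most abundant host. It read 1239, 1023 and 1123 in the Control and 984, 929 and 899 in the Sox9cKO samples, and every Sox9cKO value lay below every Control value (log2 fold change -0.26, 95% interval -0.54 to 0.013, limma adjusted p = 0.306). Snhg12 read 276, 251 and 239.6 in Control and 194, 227 and 192 in Sox9cKO samples, again without overlap (log2 fold change -0.32, limma adjusted p = 0.317). Snhg3, host of the Snora73 pair, read 85.7, 78.9 and 68.0 in Control and 51.7, 47.3 and 67.9 in Sox9cKO samples. Its highest Sox9cKO value and lowest Control value nearly met (log2 fold change -0.48, limma adjusted p = 0.338). In contrast to these 5, Snhg1 read 448, 400.0 and 433 in Control and 384, 409 and 418 in Sox9cKO samples, with a log2 fold change of -0.080 and a 95% interval of -0.36 to 0.20.

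Snhg17 had the highest log2 fold change among the hosts, 0.40, but read 313, 408 and 633 in Control and 523, 679 and 526 in Sox9cKO samples, with Control replicate 3 inside the Sox9cKO range. Of the remaining hosts with overlapping groups, Snhg4 (0.20), Snhg15 (0.081) and Snhg6 (0.0097) had log2 fold changes above 0. Those of Snhg16 (-0.018), Snhg20 (-0.11), Snhg8 (-0.36), Snhg14 (-0.42) and Snhg11 (-0.57) were below 0. Snhg6 and Snhg15 turned negative and Snhg16 positive under other settings. A second Snhg4 row, Snhg9 and Snhg10 had means under 10 and were not tested. Snhg7os read 9.25, 92.8 and 5.76 in Control and 40.8, 46.3 and 19.2 in Sox9cKO samples, a spread within each group that left a 95% interval of -1.37 to 3.11. Genes on the opposite strand overlap Gas5, Snhg3, Snhg6, Snhg14 and Snhg16 in the annotation, and whether counting used the strand is not given in the sources used here, so these rows may hold reads of both partners.

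**Figure D5:**
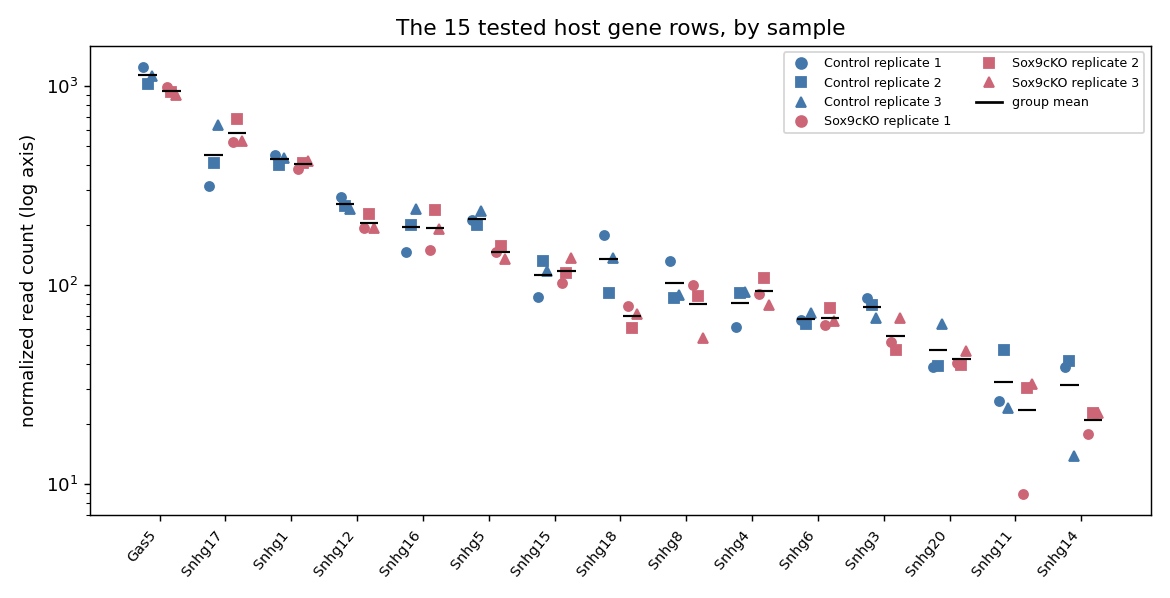
Normalized read counts (y axis, log scale) of the 15 tested host gene rows (x axis) in each Control sample (blue) and Sox9cKO sample (red), with marker shape for the replicate number and a bar for the group mean. In Gas5, Snhg12, Snhg5, Snhg18 and Snhg3 every Sox9cKO sample lies below every Control sample.

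Small RNAs and their hosts did not show a common direction in these samples. The annotation places 62 of the 74 small RNAs inside a named gene on the same strand, 53 of them within introns only, in 52 hosts. In 45 pairs both partners were tested, and 22 of these had the same sign. Across the 45 pairs Pearson's r of the log2 fold changes was 0.14 and Spearman's rho -0.097, given as a description since pairs share hosts and libraries. Reads of an unspliced host transcript over an intronic snoRNA cannot be told apart from reads of the snoRNA. Of 50 tested hosts limma called 0 without the block, with 4 at an unadjusted p under 0.05 beside 17.8% of all features, and edgeR called 0. DESeq2 and the blocked fit each called 3, Rbmx, Cep295 and Snhg18, beside 7.08% and 8.05% of all features. Among 11 ribosomal protein hosts, 5 had a positive log2 fold change.

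Snora73b and its host Snhg3 pointed in opposite directions, with log2 fold changes of 0.20 and -0.48, although Rcc1, a regulator of nuclear transport whose introns also contain it, was at 0.13. Rbmx, an RNA-binding protein gene, read 653, 514 and 503 in Control and 375, 357 and 354 in Sox9cKO samples, without overlap. It was at -0.61 (SE 0.14, limma adjusted p = 0.0787, and 0.0334 with the replicate block), and Snord61 in its intron at 0.16. In Nop58, which codes for a protein of the box C/D particle, the host was at -0.29, Snord70 at -0.36 and Snord11 at 0.18. Scarna9 and its host Cep295, a centriole gene, stood at 0.66 and 0.63. Cep295 read 418, 414 and 387 in Control and 547, 661 and 687 in Sox9cKO samples, without overlap (limma adjusted p = 0.0588, and 0.0354 with the replicate block). Levels could differ as widely as directions: Scarna13 stood at 2474 normalized reads per kb and Snhg10 around it at 12.0, and Snora78 at 595 and Snhg9 at 18.4. These pairs were picked after their values were seen.

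The protein partners were read from lists of the pathway's genes. limma called 0 genes in each of the 9 lists that follow. Over their 78 tested genes together limma and edgeR found 7 each at an unadjusted p under 0.05, beside 17.8% and 17.5% of all features. edgeR called 0, beside 2.86% of all features. DESeq2 and the blocked fit called 1 (Hexim1), beside 7.08% and 8.05% of all features. Of the 4 core proteins of the box C/D particle, Fbl (fibrillarin) was at a log2 fold change of -0.16, Nop56 at 0.086, Nop58 at -0.29 and Snu13 at -0.17. Of the 4 core proteins of the box H/ACA particle, Dkc1 (dyskerin) was at 0.010, Gar1 at 0.020, Nhp2 at 0.019, and Nop10 was at 0.31 (limma adjusted p = 0.418). Naf1, an assembly factor of that particle, averaged 563 ± 76.6 (SD, n = 3) in Control and 394 ± 40.8 (SD, n = 3) in Sox9cKO samples, with no overlap (log2 fold change -0.51, limma adjusted p = 0.139). The 14 assembly and Cajal body factors had a median of 0.045.

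The 10 tested proteins of RNase P and RNase MRP had a median log2 fold change of 0.11 and ranged from -0.31 to 0.52, with Pop4 and Pop5, both subunits, at 0.51 and 0.52. The 7 signal recognition particle proteins had a median of 0.12, the 6 telomerase genes 0.057, the 10 nonsense-mediated decay factors 0.035, and the 18 genes of RNA polymerase I and ribosomal RNA processing 0.058, beside 0.036 over all features. Nonsense-mediated decay is known to degrade spliced Snhg transcripts, and of its factors Upf1 was at 0.075 and Smg6 at -0.35 (limma adjusted p = 0.208).

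In the 7SK particle, which holds back the elongation kinase P-TEFb, Hexim1 read 3300, 2192 and 2831 in the Control samples and 1984, 1448 and 1282 in the Sox9cKO samples. The groups did not overlap (log2 fold change -0.82, SE 0.21, limma adjusted p = 0.0984, and 0.014 with the replicate block, lower in 3 of 3 pairs). Its relative Hexim2 read 29.4, 36.2 and 34.6 in Control and 13.9, 17.0 and 19.2 in Sox9cKO samples (limma adjusted p = 0.137), whereas Cdk9, the kinase itself, and its cyclin Ccnt1 were at 0.047 and -0.0031. Among 6 abundant transcripts of the libraries limma, edgeR and DESeq2 called 0, also at an unadjusted p under 0.05. Xist was at -3.89, with the values given above, Malat1 at 0.053 and the mitochondrial ribosomal RNA mt-Rnr2 at 0.021. Hexim1, like the other pathway genes with values here, was chosen after its values were seen.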

How the data were processed

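The authors deposited a table of normalized counts, a signal per gene and sample. Per the submitters' processing notes, DESeq2 1.36.0 and the build GRCm39 were used, with no role given. The aligner, the counting program, the use of molecular identifiers and of strand are not given in the sources used here. Each deposited value was a whole multiple of 1 step per sample, and 100% of values came out as whole reads (tolerance 0.001 reads). Rows held at least 10 reads in total.

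Values were transformed as log2(value + 1), and features averaging 10 normalized reads or more were fitted with limma 3.58.1 (intensity trend) in R 4.3.3 on 3 Control and 3 Sox9cKO samples, with Benjamini-Hochberg adjustment over all 17153 features. Fold changes of low rows are understated on this scale. Summed levels were compared with exact permutation tests. Members, lists and the naming rule were chosen with earlier results of these data known. The rule named Rpph1 and the Rn7s rows, hosts with a mean of at least 10, the 10 most abundant members, non-overlapping members with the largest differences, and small RNAs inside host members. Other members named, and their hosts, were chosen after their values were seen.

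The labels number the replicates, which is the source of the pairing. Deviations from group means of same-numbered samples correlated at 0.21, 0.47 and 0.54 over all features tested. Over the tested small RNA members the correlations were lower, at 0.17, 0.32 and 0.23. A fit blocked on the replicate number is therefore given where it changed a call. Other settings tried were a pseudocount of 0.1 or 5, testing without a filter or from a mean of 50 up, TMM, quantile and small-RNA scaling, edgeR 4.0.16 and DESeq2 1.42.0 on the whole reads, and leaving out each sample. The scripts were tested on simulated data. Symbols are those of the table. Lengths, hosts and sequences were read from the GENCODE M21 annotation of GRCm38, where 88 members matched by identifier and 5 by symbol, and no coordinates are given.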

Additional observations from a re-analysis of the deposited data

How the results depend on the processing

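Over all features, limma called 510 and edgeR on the whole reads 491, against 1381 with the replicate block, 1160 with edgeR and the block, 1214 with DESeq2, and 200 to 389 without 1 sample at a time. Without Control replicate 1 the count was 200, without Control replicate 3 it was 210, without Sox9cKO replicate 2 it was 337 and without Sox9cKO replicate 3 it was 280. Called small RNA members were 0, but 1 (Rpph1) with a minimum mean of 50 (adjusted p = 0.0474), with the block, with edgeR and the block, and with DESeq2. Called host members were 0, but 1 (Snhg18) with the block, with edgeR and the block, and with DESeq2. Fewer features were tested under the minimum mean of 50, and the cause of the other calls was not tested. The block changed no other member call, and leaving out 1 sample gave 0 calls among small RNAs and among hosts. Over all settings the adjusted p of Rpph1 ranged from 0.00724 to 0.278 and that of Snhg18 from 0.0419 to 0.395.

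Log2 fold changes reversed for 10 named members, none of them called. Scarna13 (0.075) was at -0.038 under quantile and -0.013 under small-RNA scaling, and Snhg15 (0.081) at -0.024 and -0.0065. Snhg6 (0.0097) was at -0.034 under TMM, -0.046 under quantile and -0.078 under small-RNA scaling, and at -0.030, -0.032 and -0.021 with edgeR, edgeR with the block and DESeq2. Leaving out 1 sample at a time gave -0.25 to 0.12 for Snora21, -0.054 to 0.25 for Snora23, -0.058 to 0.17 for Scarna13, -0.21 to 0.15 for Snhg16, -0.0073 to 0.60 for Snord87, -0.087 to 0.21 for Snhg15, -0.051 to 0.41 for Rn7s6, -0.047 to 0.25 for Snora78, -0.074 to 0.068 for Snhg6 and -0.23 to 0.12 for Snhg20. The ratio of the box H/ACA share of reads (0.991) ranged from 0.950 to 1.05. The scaRNA ratio of 0.871 was 1.06 without Scarna2. The cause of these reversals was not tested. The other 20 named and tested members kept their sign in every setting run.

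Over the 74 tested members the 95% interval reached a median of 0.71 to either side of the log2 fold change. It reached at most 2.24, in Snhg7os, and 19 members had too few reads to test. Reads of near-identical copies and of overlapping strands could not be separated, and the intervals cover the spread between 3 samples a group.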

Other observations

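The annotation classes 187 of the table's rows as snoRNA or scaRNA, of which 121 carry the symbol of a predicted gene and so fall outside the symbol rule. They served as a further set of small RNAs. Of the 69 that averaged 10 normalized reads or more, limma, edgeR and DESeq2 called 0, also at an unadjusted p under 0.05, and the groups did not overlap in 0 of 69, beside 24.2% of all features tested. Log2 fold changes were positive in 40 and negative in 29, with a median of 0.049. The most abundant, Gm22009, read 1669, 1943 and 1483 in Control and 1415, 2092 and 2153 in Sox9cKO samples, a level above every member but Snord17 and Scarna2. Of the 15 tested rows under 100 nt, 7 had their highest value in Sox9cKO replicate 2, where their median log2 deviation was 0.27. Of the 54 rows of 100 nt or more, 2 had their highest value in Control replicate 3, where the median deviation was -0.24.

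Other short noncoding RNAs outside the rule had these values. Vaultrc5, a vault RNA, read 1679, 2191 and 1425 in Control and 3877, 2138 and 3874 in Sox9cKO samples (log2 fold change 0.87, limma adjusted p = 0.151, 0.0977 with the replicate block, 0.155 with edgeR and 0.0296, a call, with DESeq2), with Sox9cKO replicate 2 inside the Control range. The Y RNA Rny3 read 955, 1167 and 615 in Control and 1135, 1296 and 775 in Sox9cKO samples. Rny1 read 569.9, 684 and 332 in Control and 432, 477 and 331 in Sox9cKO samples. Rnu12, an RNA of the minor spliceosome, read 414, 510.5 and 158 in Control and 472, 496 and 200.4 in Sox9cKO samples. In Rny3, Rny1 and Rnu12 the sample numbered 3 was the lowest of its group, in both groups. The most abundant of the 43 rows with the symbol 7SK read 121626, 114714 and 164139 in Control and 136573, 108612 and 148610 in Sox9cKO samples, with overlapping groups and a log2 fold change of -0.018.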
